A study of Mus musculus with 6 samples.

Results

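The 10 genes described here are the MHC class I heavy chain genes H2-K1 and H2-D1, their shared light chain gene B2m, the peptide loading genes Tap1, Tap2 and Tapbp, the immunoproteasome genes Psmb8, Psmb9 and Psmb10, and Nlrc5, the transactivator of class I genes. They were chosen by name, and all 10 were found among the 55335 gene identifiers of the count table. RNA was measured in donor P14 CD8+ T cells, whose transgenic receptor reads the GP33-41 peptide. The host mice bore B16-GP33-41 melanoma, a tumor line that displays this peptide, and the donor cells were transferred on day 11 after implantation. One group holds 3 libraries of P14 cells sorted from tumor and the other 3 libraries sorted from the spleens of the same mice, though not stated animal by animal. Both groups are labelled C57BL/6, P14 TCR transgenic and 10 weeks old. The donor cells share the P14 transgene, so the comparison covers 1 transgenic receptor, and no group comes from tumor-free animals. Tumor leukocytes were recovered over Percoll before sorting, and no such step is given for spleen.

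MHC class I molecules carry peptides from proteins inside the cell to its surface, where CD8+ T cells read them. The peptides are cut by the proteasome and pumped into the endoplasmic reticulum by the TAP transporter. Tapasin and other chaperones then load them onto a heavy chain paired with beta-2 microglobulin. The proteasome core has catalytic subunits in a constitutive form (encoded by Psmb5, Psmb6 and Psmb7) and an interferon-inducible form (Psmb8, Psmb9 and Psmb10), and lymphocytes carry much of the inducible form at rest. NLRC5 acts through an assembly of the RFX, CREB/ATF and NF-Y proteins on the S, X and Y boxes of class I promoters. T cells are both readers and bearers of class I, and the peptide seen by the P14 receptor is presented by H-2Db, the product of H2-D1 in this strain.

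Promoter sequence is shown for 3 genes that fell in tumor (H2-K1, H2-D1 and B2m) and 2 whose difference did not pass (Psmb9 and Psmb8). The windows of Tap1, Tapbp and Psmb10, which also fell, are not shown. Those of Tap1 and Tapbp held Y box matches alone, and that of Psmb10 held no match. A link between motif matches and the direction of a difference was not tested. Each line holds the 250 bases before the RefSeq start (assembly GRCm38.p6, written 5′ to 3′ on the gene's strand), and capitals mark motif matches on either strand. The windows are chr17:34000348-34000597 (minus strand) for H2-K1, chr17:35262844-35263093 (plus) for H2-D1, chr2:122147437-122147686 (plus) for B2m, chr17:34187331-34187580 (minus) for Psmb9 and chr17:34197945-34198194 (plus) for Psmb8.
H2-K1: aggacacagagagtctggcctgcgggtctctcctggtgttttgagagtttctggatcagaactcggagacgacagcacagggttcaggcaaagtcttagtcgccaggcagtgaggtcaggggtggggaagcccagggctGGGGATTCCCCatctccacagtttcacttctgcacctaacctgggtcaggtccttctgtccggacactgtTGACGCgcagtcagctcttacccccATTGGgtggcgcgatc
H2-D1: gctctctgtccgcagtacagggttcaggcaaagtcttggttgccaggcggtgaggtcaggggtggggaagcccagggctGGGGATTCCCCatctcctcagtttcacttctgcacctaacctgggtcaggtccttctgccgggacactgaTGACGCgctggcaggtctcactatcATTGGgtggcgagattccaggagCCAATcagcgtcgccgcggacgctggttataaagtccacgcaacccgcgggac
B2m: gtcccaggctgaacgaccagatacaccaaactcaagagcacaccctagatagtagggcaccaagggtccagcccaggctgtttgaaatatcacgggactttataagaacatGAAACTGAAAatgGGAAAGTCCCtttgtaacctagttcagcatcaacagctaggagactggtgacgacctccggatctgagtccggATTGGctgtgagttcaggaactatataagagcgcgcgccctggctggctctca
Psmb9: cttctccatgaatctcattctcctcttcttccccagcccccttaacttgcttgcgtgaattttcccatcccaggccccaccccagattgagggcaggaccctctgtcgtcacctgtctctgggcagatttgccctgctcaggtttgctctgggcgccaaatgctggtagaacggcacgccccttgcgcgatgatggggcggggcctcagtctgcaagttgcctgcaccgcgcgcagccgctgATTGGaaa
Psmb8: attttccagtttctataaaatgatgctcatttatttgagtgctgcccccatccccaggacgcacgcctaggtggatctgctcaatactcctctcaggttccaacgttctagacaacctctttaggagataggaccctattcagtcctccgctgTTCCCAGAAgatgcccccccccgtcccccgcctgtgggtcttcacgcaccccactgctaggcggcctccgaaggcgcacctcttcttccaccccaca
In H2-K1 and H2-D1 the capitals mark, from left to right, a kappa B site (GGGGATTCCCC, which matches in overlapping frames), the core of an X2 box (TGACGC) and an inverted Y box (ATTGG) followed in H2-D1 by a further CCAAT. RefSeq has 2 starts for H2-K1, and the window of the other start also holds a further CCAAT to the right of these matches. In B2m they mark an interferon-stimulated response element (GAAACTGAAA), a kappa B site (GGAAAGTCCC) and an inverted Y box. The Psmb9 window holds an inverted Y box alone, and the Psmb8 window holds a STAT site (TTCCCAGAA).

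Across the 8 genes with an entry in the RefSeq promoter table, the motif searches on both strands found the X2 core TGACGC in 2 genes, CCAAT (the Y box) in 6, the interferon-stimulated response element in 1, the STAT site TTCNNNGAA in 1 and the kappa B site in 3. Each motif was searched as 1 pattern, that of the response element with both of its repeats in full. Looser forms were not searched, so these counts do not show that the other windows, those of H2-K1 and H2-D1 included, lack such an element. Of 32851 promoter windows of the same length, 6.12% held the X2 core, 33.8% CCAAT, 2.98% the response element, 7.02% the STAT site and 5% the kappa B site. Between H2-K1 and H2-D1, 161 of 177 aligned bases were identical (91.0%). Both have the kappa B site 70 bases before the X2 core and the X2 core 25 bases before the inverted Y box. Tap1 and Psmb9 are transcribed away from each other, and their windows share 225 bases (chr17:34187331-34187555). The Y box match of Tap1 and that of Psmb9 are the same bases of this shared stretch, so a single site is counted for both genes. No match was found in the Psmb10 window. GENCODE places some starts elsewhere than RefSeq does, so each window holds for the RefSeq start only, and a match is a description of letters, not of binding.

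**Figure D1:**
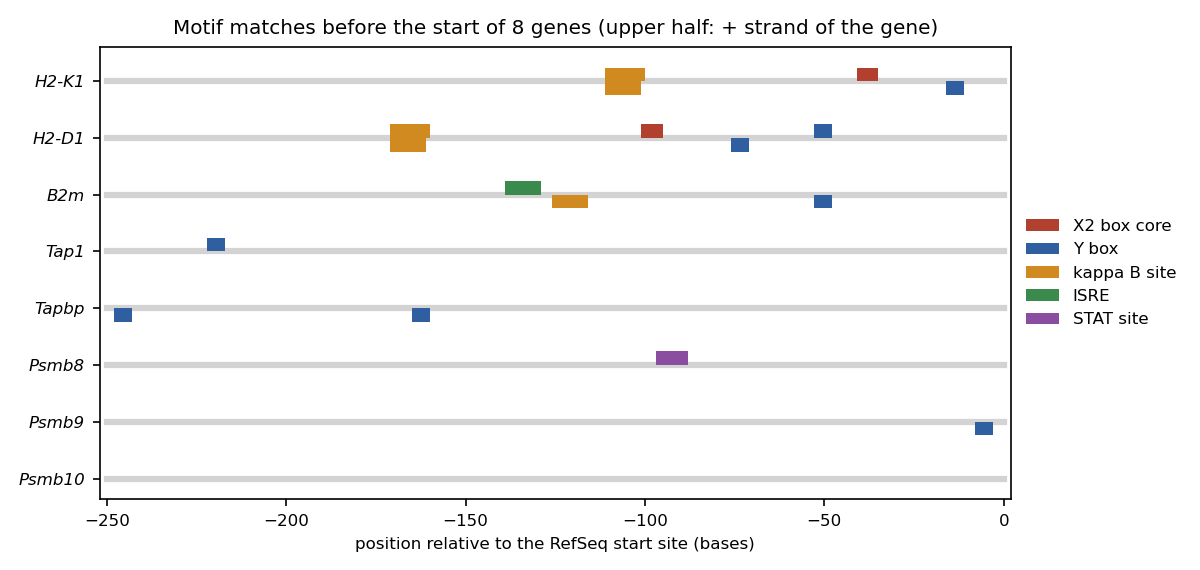
Positions of motif matches in the 250 bases before the RefSeq start of 8 genes, in bases from the start, with bars above the line for matches on the gene's own strand and below it for the opposite strand. H2-K1 and H2-D1 hold a kappa B site, an X2 core and an inverted Y box at the same spacing, and the Psmb10 window holds no match.

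The 10 genes lie on 3 chromosomes of mm10. On chromosome 17, within the MHC region, are Tapbp (ENSMUSG00000024308.15) at 33915899 to 33929292, H2-K1 (ENSMUSG00000061232.16) at 33996017 to 34000347, Psmb9 (ENSMUSG00000096727.3) at 34181987 to 34187764, Tap1 (ENSMUSG00000037321.17) at 34187553 to 34197225, Psmb8 (ENSMUSG00000024338.15) at 34197721 to 34201454, Tap2 (ENSMUSG00000024339.12) at 34203527 to 34216321 and H2-D1 (ENSMUSG00000073411.12) at 35262730 to 35267499. On chromosome 8 are Nlrc5 (ENSMUSG00000074151.13) at 94434356 to 94527272 and Psmb10 (ENSMUSG00000031897.9) at 105935735 to 105938444. B2m (ENSMUSG00000060802.8) lies on chromosome 2 from 122147686 to 122153083.

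Library totals ran from 35095261 to 38263483 counts. Of 19783 genes tested across the table, 70.7% passed, 34.8% higher and 35.9% lower in tumor, by edgeR's quasi-likelihood test at a Benjamini-Hochberg adjusted p below 0.05, so a call by itself sets no gene apart. The T cell list kept high levels in every library (summed 4425 to 4617 CPM, the count scaled to the library total, in tumor and 4951 to 5005 in spleen). Its genes did not move alike. Of the 10, 2 were higher, 4 lower and 4 did not pass, with log2 fold changes (tumor over spleen) from -0.62 to 0.88. The codes of the sample descriptions end differently in the 2 tissues, and if the endings mark a batch, its share in a difference cannot be told apart from that of tissue.

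Of the 10 genes, 8 were lower in tumor and 0 higher, where 35.9% of all genes tested were lower. Psmb8 and Psmb9 did not pass. The tissues did not overlap for 9 of the 10 genes, and did not overlap for 74.5% of all genes tested. The median log2 fold change (tumor over spleen) of the 10 was -0.60, and that of all genes tested was -0.02. Against a null of a 1.5-fold change, a test added after the data were seen, 5 of the 10 were lower (H2-K1, H2-D1, Tapbp, Psmb10 and Nlrc5), where 17.5% of all genes were. Together the 10 genes held 0.974% ± 0.0275 of all counts in tumor and 1.58% ± 0.0131 in spleen (SD, n = 3 each; two-sided exact permutation p = 0.1, the smallest that 3 against 3 libraries allow).

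**Figure D2:**
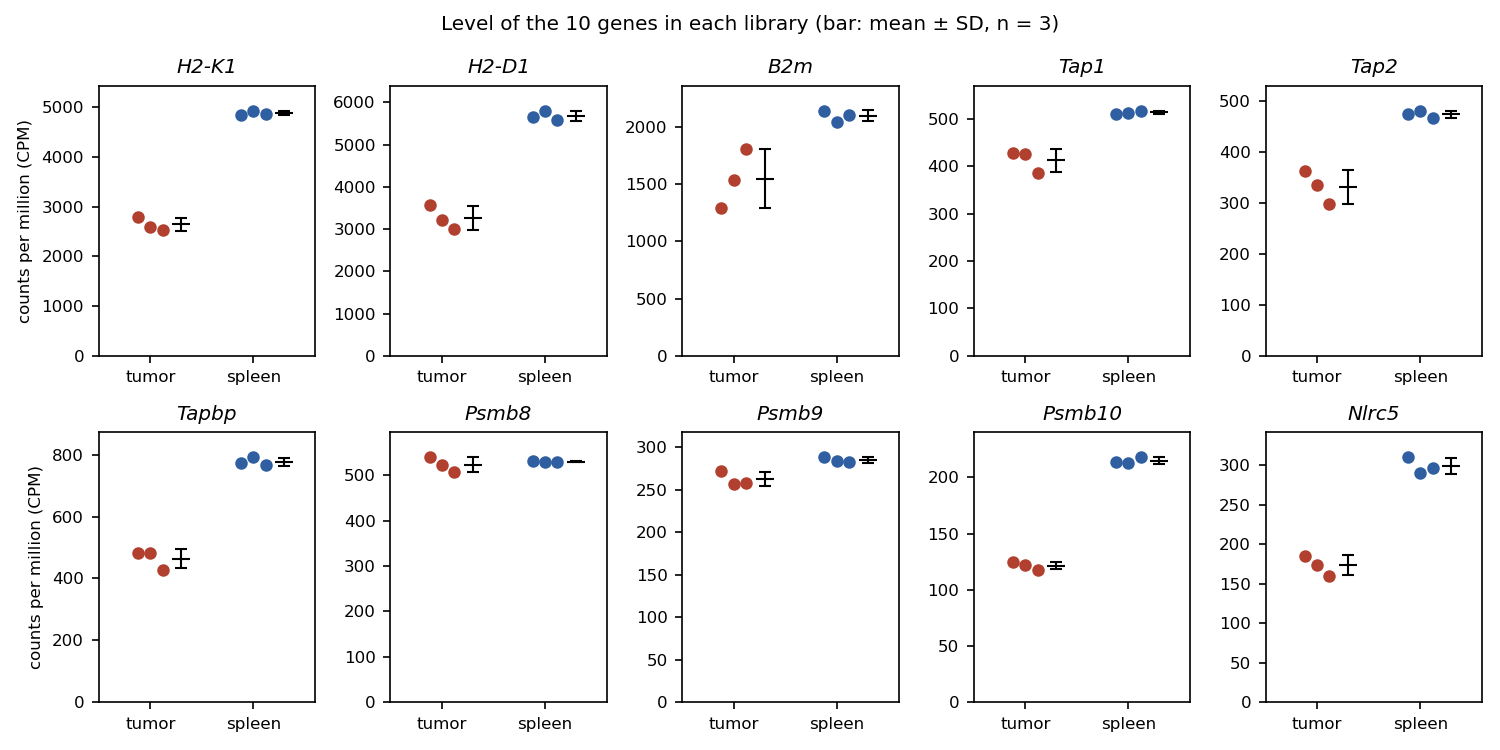
Level of each of the 10 genes in CPM (vertical axes from 0), with 1 point per library and the mean ± SD of the 3 libraries of each tissue beside it. The points of tumor lie below those of spleen for every gene except Psmb8, whose tissues overlap.

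The classical heavy chain genes had the most counts of the set, uncorrected for length, and fell in tumor by less than 2-fold. H2-K1, the H-2Kb heavy chain gene, was at 2793, 2599 and 2537 CPM in tumor and at 4841, 4933 and 4871 CPM in spleen. Every tumor library was well below every spleen library (1.81-fold lower, log2 fold change -0.86, SE 0.06, edgeR adjusted p = 1.5e-07). H2-D1 was at 3560, 3218 and 3007 CPM in tumor against 5654, 5805 and 5572 CPM in spleen. It too was lower in all 3 tumor libraries (1.71-fold, log2 -0.77, SE 0.07, adjusted p = 1.7e-06). In bulk RNA, fewer cells that express a gene and less RNA of it per cell cannot be told apart.

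B2m, whose product pairs with every class I heavy chain, fell by less and varied more. Its levels were 1295, 1539 and 1810 CPM in tumor and 2142, 2045 and 2103 CPM in spleen. No tumor library reached the spleen range (1.33-fold lower, log2 -0.41, SE 0.09, adjusted p = 0.0016), but the 3 tumor values spread over a coefficient of variation of 16.6%, against 2.33% in spleen. For the other 9 genes that coefficient was 2.74% to 9.95% in tumor and 0.180% to 3.41% in spleen. The tumor library with the highest H2-K1 had the lowest B2m, and the one with the lowest H2-K1 had the highest B2m. As a result the count ratio of H2-K1 to B2m was 2.16, 1.69 and 1.40 in the tumor libraries and 2.26, 2.41 and 2.32 in the spleen libraries. This ratio was chosen after its values were seen, and it was lower in every tumor library (log2 difference -0.44, two-sided exact permutation p = 0.1, n = 3 each).

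Class I genes resemble each other, and reads of 50 bases can match more than 1 of them. In the GENCODE transcripts, 9.63% of the 50-base windows of H2-K1 and 12.8% of those of H2-D1 occur in another gene, against 0 of the windows of B2m, Psmb9, Psmb10 and Nlrc5. The share was highest for H2-T22 (34.5%), H2-T10 (32.9%) and H2-Q6 (32.0%) among the other class I genes. The sources used here do not say how such reads were counted, so the split between near-identical class I genes is uncertain. The sum over 22 class I heavy chain genes does not depend on that split among them. It made up 1.03%, 0.943% and 0.893% of counts in tumor and 1.75%, 1.78% and 1.73% in spleen. The sum was thus 1.84-fold lower in tumor (two-sided exact permutation p = 0.1, n = 3 each).

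The other class I and class I-like genes moved in the same direction. Of 20 on the list, 18 of the 19 tested were lower and 0 higher (median log2 -0.90), where 35.9% of all genes tested were lower. Against the 1.5-fold null 14 were lower, where 17.5% of all genes were. H2-T23, which encodes Qa-1, the ligand of NKG2 receptors, had the smallest of these falls, from 682 ± 2.56 to 446 ± 25.5 CPM (log2 -0.58, SD, n = 3 each). The Qa-2 genes H2-Q7 (-1.04) and H2-Q6 (-1.0) fell by about as much as H2-M3 (-1.0), which presents formylated peptides. H2-T24 fell by 1.70, and Mr1, which presents microbial metabolites to MAIT cells, by 0.86 on the log2 scale. The CD1d genes Cd1d1 (-1.91) and Cd1d2 (-1.86), the neonatal Fc receptor gene Fcgrt (-3.82) and the iron regulator gene Hfe (-4.37) fell most, all with a mean below 8 CPM in tumor. H2-M5 did not pass (-0.54, adjusted p = 0.20), and Azgp1 had 0 counts in every library, which allows up to 0.0855 CPM.

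Markers of antigen-presenting cells moved with these falls. All 10 genes of the MHC class II and dendritic cell list, all 10 B cell markers and all 10 macrophage markers were lower in tumor. Of all genes tested, 35.9% were lower. The summed level of the class II and dendritic list was 82.2 to 88.7 CPM in tumor and 1826 to 1870 CPM in spleen, led in spleen by Cd74, the invariant chain gene (19.2 ± 0.746 CPM in tumor, 1012 ± 18 in spleen). For B cell markers the sums were 11.0 to 13.4 and 577 to 590 CPM, and for macrophage markers 40.9 to 42.6 and 248 to 266 CPM. The B cell marker Cr2 was at 0 in all tumor libraries, as was Siglech of the dendritic list, and no marker of the 3 lists was at 0 in all spleen libraries. These cell types also carry class I, and the part of their RNA in the results on class I, peptide loading, immunoproteasome and interferon genes was not tested. The melanoma list summed to 21.7 to 23.1 CPM in tumor and 32.9 to 33.6 CPM in spleen, sums made up mostly of Pmel (8.54 ± 0.876 and 19.8 ± 1.08 CPM) and Gpnmb (12.2 ± 0.169 and 12.8 ± 0.858 CPM). The melanocyte genes Dct, Tyrp1 and Mlana went the other way, each below 1 CPM in every library. Over the 3 libraries of each tissue, Dct had 51 counts in tumor and 1 in spleen, Tyrp1 64 and 0, and Mlana 19 and 2. Dct was called higher in tumor (adjusted p = 2.0e-05, also against the 1.5-fold null), while Tyrp1 and Mlana did not reach the filter on low counts. Without that filter, 5 genes of the list were called higher, against 1 with it. The part of melanoma RNA in the results was not tested.

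**Figure D3:**
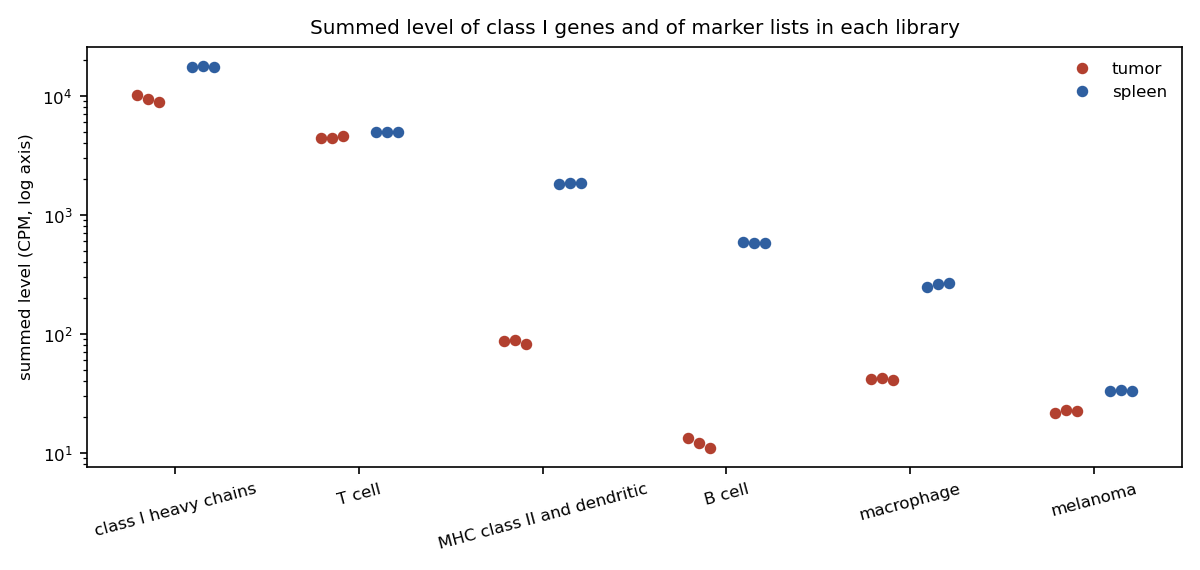
Summed CPM (log axis) of the class I heavy chain genes and of 5 marker lists, with 1 point per library. Class I sums lie within about 2-fold between the tissues, while the class II and dendritic, B cell and macrophage sums are far higher in all spleen libraries.

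The 3 peptide loading genes were all lower in tumor, Tapbp most, where 35.9% of all genes tested were lower. Tapbp encodes tapasin, which bridges TAP and the class I heavy chain. It was at 483, 481 and 428 CPM in tumor and 771, 792 and 766 CPM in spleen (1.64-fold lower, log2 -0.71, SE 0.06, edgeR adjusted p = 1.4e-06). TAP is a pair of half-transporters. Tap1 was at 427, 425 and 384 CPM in tumor against 510, 512 and 517 CPM in spleen, the smallest fall that passed (1.22-fold, log2 -0.29, SE 0.06, adjusted p = 0.0012). Tap2 was at 364, 335 and 298 CPM against 474, 482 and 467 CPM (1.40-fold, log2 -0.48, SE 0.08, adjusted p = 0.00014). The tissues did not overlap for any of the 3, and did not overlap for 74.5% of all genes tested. Exons of Tap1 and Psmb9 overlap on opposite strands, and Tap2 and Psmb8 both overlap the antisense model Gm20496 (176 to 198 CPM in tumor and 195 to 197 CPM in spleen). Exons of Tapbp overlap those of Zbtb22 on the same strand (21.7 to 24.2 CPM in tumor and 26.5 to 29.9 in spleen), which a strand setting could not separate, and those of Gm19412 on the opposite strand (57.7 to 79.7 and 119 to 124 CPM). Tap2 also overlaps Gm15821 on the opposite strand (92.8 to 111 and 144 to 148 CPM). The sources used here do not say whether the counting used strand, so some reads of these genes may be shared.

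Genes of the later loading steps and of peptide trimming did not fall with tapasin and TAP as a group. Of the 13 genes of the list that were tested, 7 were higher, 3 lower and 3 did not pass (median log2 0.34). Of all genes tested, 34.8% were higher and 35.9% lower. Against the 1.5-fold null 3 were higher (Thop1, Lap3 and Hspa5) and 0 lower, where 14.9% of all genes were higher. The loading chaperone genes Calr (calreticulin, 0.46) and Canx (calnexin, 0.54) rose, as did Hspa5, the BiP chaperone of the endoplasmic reticulum (0.79). Pdia3, whose product ERp57 joins the loading complex, had 526 ± 69.6 CPM in tumor against 496 ± 6.88 CPM in spleen, a difference that did not pass (adjusted p = 0.21). The widest rises of the list were those of Thop1, a cytosolic enzyme which degrades peptides of antigenic length, from 16.6 ± 0.843 to 82.6 ± 10.7 CPM (5.09-fold), and of Lap3, an aminopeptidase, from 31.6 ± 1.27 to 79.2 ± 0.638 CPM (2.56-fold). Other cytosolic peptidase genes rose by less, Npepps by 0.62 and Blmh by 0.34 on the log2 scale, and Tpp2 did not pass (-0.15, adjusted p = 0.11). Erap1, the trimming peptidase of the endoplasmic reticulum, did not pass (-0.08, adjusted p = 0.26). Tapbpl (-0.26), whose product TAPBPR edits the peptides on class I, and Uggt1 (-0.31), a glycoprotein quality control enzyme, fell, as did the aminopeptidase gene Lnpep (-0.40).

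The 3 immunoproteasome genes did not move alike. Psmb8, which encodes LMP7 (beta-5i), was at 540, 522 and 506 CPM in tumor and 530, 528 and 529 CPM in spleen. The tissues overlapped, and its log2 fold change of 0.01 (SE 0.05, adjusted p = 0.84) took either sign under other scalings (-0.04 with upper quartiles, -0.02 with library totals and 0.14 with an offset from T cell genes). Psmb9, which encodes LMP2 (beta-1i), was at 272, 257 and 258 CPM in tumor and 288, 283 and 282 CPM in spleen. All tumor values were below all spleen values, yet the difference did not pass (-0.09, SE 0.05, adjusted p = 0.15). It passed with upper-quartile scaling (-0.14, adjusted p = 0.033) and with library totals (-0.12, adjusted p = 0.043), and its sign turned with the T cell offset (0.03, adjusted p = 0.62).

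Psmb10, which encodes MECL-1 (beta-2i), differed from both. It was at 124, 122 and 118 CPM in tumor and 214, 212 and 218 CPM in spleen, 1.73-fold lower with no overlap (log2 -0.79, SE 0.05, adjusted p = 1.7e-07). The count ratio of Psmb10 to Psmb8 was 0.230, 0.234 and 0.233 in tumor and 0.403, 0.403 and 0.412 in spleen, a ratio singled out after its values were seen (log2 difference -0.80, two-sided exact permutation p = 0.1, n = 3 each). Psmb10 lies on chromosome 8, apart from Psmb8 and Psmb9 in the MHC region.

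The constitutive catalytic subunits rose in the same libraries. Psmb5 (beta-5) was at 140, 138 and 126 CPM in tumor and 98.8, 100.1 and 100.9 CPM in spleen (log2 0.46, SE 0.06, edgeR adjusted p = 4.9e-05). Psmb6 (beta-1) rose from 112 ± 3.74 to 173 ± 3.93 CPM (0.66) and Psmb7 (beta-2) from 61.4 ± 2.22 to 100 ± 11.4 CPM (0.73). All 3 passed, where 34.8% of all genes were higher, and 54.1% of the 50-base windows of Psmb5 occur in another gene, most of them in Gm3375. The other 11 subunits of the 20S core were all higher too, with log2 fold changes from 0.28 (Psmb3) to 0.70 (Psma7). Against the 1.5-fold null, Psmb7 and Psma7 alone of these 14 genes were higher, where 14.9% of all genes were, so this count does not set them apart. The PA28 activator genes Psme1 (-0.09, adjusted p = 0.16) and Psme2 (0.14, adjusted p = 0.029) and Pomp, the assembly factor of the core (0.21, adjusted p = 0.0081), changed little. With upper-quartile scaling or library totals, 1 of these 3 was higher and 1 lower, and with the replicate block 1 was higher. Psmb11, of the thymic proteasome, had too few counts to be tested.

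Each inducible subunit takes the place of 1 constitutive partner, and all 3 ratios of counts per exon length were lower in tumor. Psmb8 to Psmb5 was 1.03, 1.01 and 1.07 in tumor and 1.43, 1.40 and 1.39 in spleen (1.36-fold lower). Psmb9 to Psmb6 was 0.783, 0.773 and 0.770 against 1.32, 1.34 and 1.25 (1.68-fold lower). Psmb10 to Psmb7 showed the widest gap, at 2.53, 2.74 and 2.11 against 7.27, 6.89 and 6.91 (2.87-fold lower). The sum of the 3 inducible over the sum of the 3 constitutive subunits was 1.097 ± 0.00215 in tumor and 1.91 ± 0.0258 in spleen (SD, n = 3 each). No ratio overlapped between the tissues, and each of the 4 had a two-sided exact permutation p of 0.1 (adjusted over the 4, 0.1), the smallest that 3 against 3 can give. A within-library ratio is not altered by the scaling between libraries. Its fold between tissues is also unaffected by the length used for a single pair, whereas its level is not: with the length of the principal transcript, Psmb10 to Psmb7 averaged 1.09 in tumor and 3.10 in spleen.

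**Figure D4:**
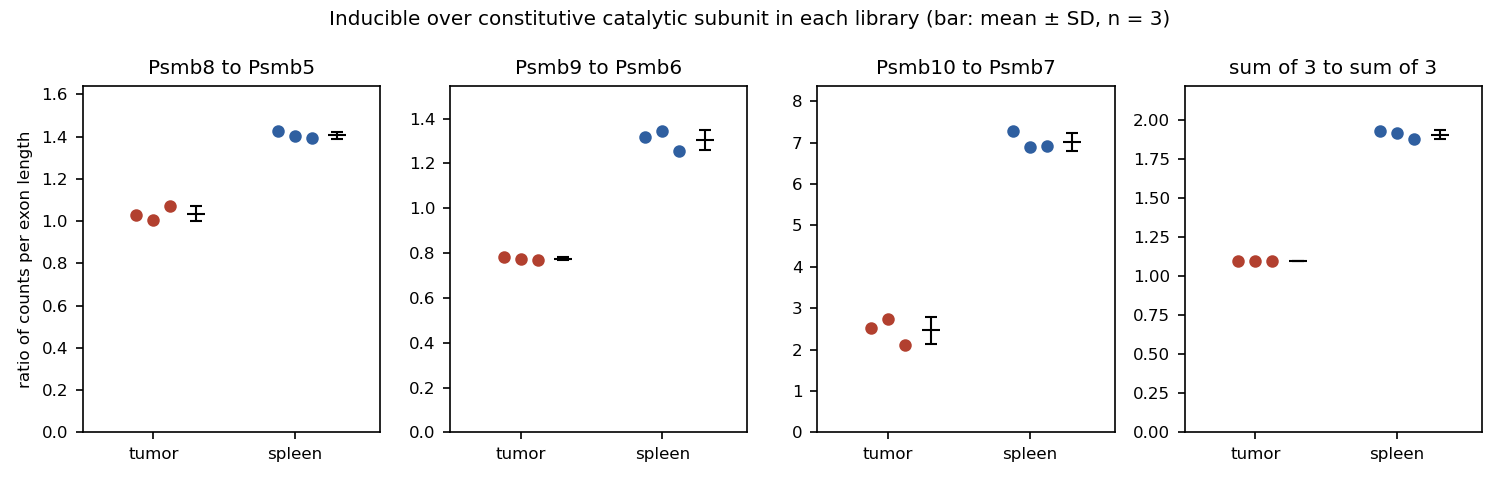
Ratio of counts per exon length (linear axes from 0) of each inducible subunit over its constitutive partner, and of the sums, with 1 point per library and the mean ± SD of 3 libraries. All tumor points lie below all spleen points in each panel, most widely for Psmb10 to Psmb7.

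Nlrc5 was lower in tumor, at 186, 174 and 161 CPM against 311, 291 and 297 CPM in spleen (1.69-fold, log2 -0.76, SE 0.07, edgeR adjusted p = 1.5e-06). The tissues did not overlap. Its exons overlap the opposite-strand model 9330175E14Rik, which had 8.02 to 8.83 CPM in tumor and 12.9 to 14 CPM in spleen. Among 10681 other genes with a mean of at least 10 CPM, those with the nearest profile over the 6 libraries (Euclidean distance of centred log2 CPM) were Brpf3 (0.0584), Kdm3b (0.0617), Fryl (0.0733), Hsdl1 (0.0757) and Syvn1 (0.0856). Of the set, H2-D1 ranked 22nd by that distance (0.104), Tapbp 48th (0.127), Psmb10 51st (0.127) and H2-K1 145th (0.161). Tap2 (0.347), Tap1 (0.585), B2m (0.642), Psmb9 (0.828) and Psmb8 (0.950) were farther away. With 6 libraries in 2 groups the distance mainly follows the difference between tissues.

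The DNA-binding partners of NLRC5 showed no common direction. Of 8 genes tested, 3 were lower, 2 higher and 3 did not pass (median log2 -0.07). Of all genes tested, 35.9% were lower and 34.8% higher, so these counts do not set the list apart. Rfx5, a subunit of the RFX complex on the X1 box, fell from 25.2 ± 1.2 to 14.7 ± 1.42 CPM (-0.74), Creb1 by 0.65 and Rfxank by 0.31 on the log2 scale. The other RFX subunit gene, Rfxap, did not pass (-0.18, adjusted p = 0.059). Atf1 (0.56) and Nfyb (0.21, adjusted p = 0.029) were higher, with 1 of the genes called higher under upper-quartile scaling or library totals and when any spleen library was left out. Against the 1.5-fold null Rfx5 alone of the 8 passed, as lower, where 17.5% of all genes were lower. Nfya (0.07) and Nfyc (0.04), the remaining NF-Y subunit genes, did not pass.

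Genes of the interferon pathway, which induces the class I genes, were lower for 12 of 13, where 35.9% of all genes tested were lower. Irf1, a direct activator of class I and immunoproteasome promoters, fell from 303 ± 6.93 to 116 ± 7.11 CPM (log2 -1.35, SE 0.06). Irf9 (-1.40) and Stat2 (-1.13), which act in type I interferon signalling, and the kinase genes Jak1 (-0.85) and Jak2 (-0.72) were lower. Of the 2 chains of the interferon gamma receptor, Ifngr1 was the 1 gene of the list that rose (0.38) and Ifngr2 fell from 8.81 ± 0.413 to 1.83 ± 0.258 CPM (-2.24). The feedback inhibitor genes Socs3 (-1.64) and Socs1 (-0.29, edgeR adjusted p = 0.021) were lower too, though the tissues overlapped for Socs1. Markers of B cells, macrophages and dendritic cells moved in the same libraries, by the sums given above.

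**Figure D5:**
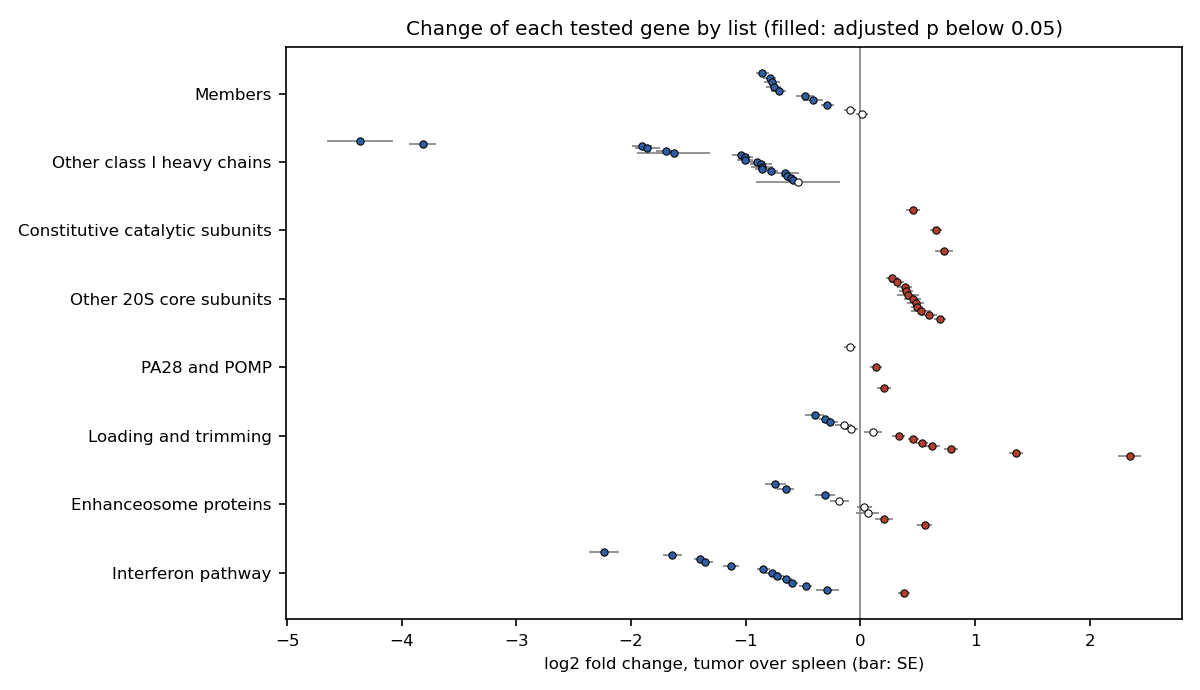
Log2 fold change of tumor over spleen with its SE for each tested gene, grouped by list, with filled points for an adjusted p below 0.05. The set and the other class I genes lie near or below 0, the constitutive and other core subunits of the proteasome above 0, and the loading and trimming genes on both sides.

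Per exon length, the order of the 10 genes was similar but not equal in the tissues. In spleen the mean levels, in CPM per kilobase, were 2438 for B2m, 2201 for H2-D1, 1662 for H2-K1, 214 for Tapbp, 156 for Psmb8, 126 for Psmb10, 126 for Tap2, 93.7 for Tap1, 77.8 for Psmb9 and 35.3 for Nlrc5. Only Psmb10 and Tap2 overlapped among neighbours in that order. In tumor the order was B2m (1800), H2-D1 (1265), H2-K1 (899.6), Psmb8 (155), Tapbp (128), Tap2 (87.9), Tap1 (75.2), Psmb9 (71.6), Psmb10 (71.3) and Nlrc5 (20.4). There Tap1 overlapped Psmb9 and Psmb9 overlapped Psmb10. The exons of a gene model can be far longer than its main transcript, and with the length of the principal transcript H2-K1 was first in spleen (3015), ahead of H2-D1 (2701) and B2m (2438), while the values of B2m overlapped those of H2-K1, and those of H2-K1 overlapped H2-D1, in tumor. Nlrc5 was the lowest of the 10 in both tissues with either length.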

How the data were processed

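RNA of sorted P14 CD8+ T cells was measured in 3 tumor and 3 spleen libraries, grouped by sample title. The authors deposited whole-number read counts for each gene, not normalized. Per the submitters' processing notes, the tools were STAR 2.3, bcl2fastq 2.20.0.422 and featureCounts, and the build was mm10. Annotation release, strand setting and treatment of multi-mapped reads: not given in the sources used here. Per the labels' protocols, single reads of 50 bp came from libraries made with an ultra-low-input kit and a stranded RNA kit.

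Symbols, coordinates and exon lengths came from GENCODE M21, which matched 54587 of 55335 identifiers with their version. The counts entered the quasi-likelihood test of edgeR 4.0.16 (R 4.3.3; TMM scaling, tissue as the only factor) after filterByExpr (minimum count 10, minimum total 15), with Benjamini-Hochberg adjustment over 19783 genes. SE is the absolute log2 fold change over the square root of F. CPM is a count over the library total, as mean ± SD of n = 3. Ratios and shares were compared by two-sided exact permutation tests (SciPy 1.17.1). Each pair of libraries differed by more than counting noise (chi-square per degree of freedom of at least 2.19). The labels do not tie libraries to separate mice. The p-values therefore reflect the spread among these 6 libraries only, which may be technical, and floors cover counting error only. Deviations from the tissue means correlated at -0.00093, 0.016 and 0.0020 between libraries that share a replicate number, so those numbers were used only in an alternative. The procedure was run on simulated counts in which few genes changed, balanced in direction, with the same spread set for both tissues. That setting does not cover data in which most genes differ and tumor libraries vary more, as here.

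The 10 genes and the lists were chosen with earlier results of these data known. All 10 genes, any gene of the pathway lists, the most abundant marker of each other cell type and the 5 genes nearest Nlrc5 could be named; other markers named were picked after their values were seen. Of 145 listed names 144 were in the table. The values of 1 interferon pathway gene are not reported here. Alternatives were other scalings, DESeq2 1.42.0, limma-voom 3.58.1, no filter, a replicate block, each library left out and, added later, a null of a 1.5-fold change and another transcript length.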

Additional observations from a re-analysis of the deposited data

How the results depend on the processing

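Each of the 8 genes called lower kept its direction and its call under each alternative except the null of a 1.5-fold change, where 5 did. With upper-quartile scaling or library totals Psmb9 was also called, making 9. The counts over all genes were 2953 higher (14.9%) and 3464 lower (17.5%) under that null. The same null left 3 higher and 0 lower loading and trimming genes, 0 higher among PA28 and POMP genes, 1 constitutive subunit, 1 other core subunit, 0 higher and 1 lower enhanceosome gene, and 0 higher interferon pathway genes. With upper-quartile scaling or library totals, 1 PA28 or POMP gene was higher and 1 lower, and 1 enhanceosome gene was higher. With the replicate block, 1 PA28 or POMP gene was higher, and no other call count named here left the range of 1.5 times. Leaving out each library in turn gave 3 to 5 lower loading and trimming genes (5 without tumor replicate 3), 1 to 2 higher PA28 or POMP genes and 1 to 2 higher enhanceosome genes (1 without spleen replicate 1, 2 or 3 in both cases). Psmb8 changed sign with upper-quartile scaling (-0.0404), library totals (-0.0174) and without tumor replicate 1 (from -0.0088 there to 0.053 without tumor replicate 3), and Psmb9 with the T cell offset (0.0331), none past the threshold, and the cause was not tested. The T cell offset moved the median of all genes by 0.12 on the log2 scale, and the 8 falls ran from -0.73 (H2-K1) to -0.16 (Tap1) under it. That offset is set by the summed counts of the T cell list, whose genes moved in both directions. The 4 subunit ratios kept their direction on counts alone and with the principal transcript length, though length cannot alter the fold of a single pair. Scaling between libraries does not alter a ratio. As no ratio overlapped between the tissues, leaving out a library could not turn its direction. With 3 libraries per tissue no test for an outlying library was made.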
